A study of Mus musculus with 6 samples.

Results

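The genes described here are 35 integrin chains, matrix receptors and focal adhesion genes, out of the 49548 genes of a count table. They were chosen by their symbols and not by a measured value, but with earlier results of these data known. They comprise 12 integrin α chains, 5 integrin β chains, the 3 receptors *Dag1*, *Ddr1* and *Ddr2*, and 15 intracellular proteins of the adhesion site. All 35 had a row in the table, and all 35 reached 10 counts in 2 or more libraries, the filter that left 15789 genes to be tested.

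Integrins are paired receptors of one α and one β chain that span the membrane, and the α chain largely sets which matrix protein is bound. Inside the cell the β chain is held to actin by talins, kindlins, vinculin and tensins, and signals through focal adhesion kinase, Src and scaffolds such as paxillin and p130Cas. Cardiac fibroblasts use these receptors to grip collagen and fibronectin, to sense the stiffness of the myocardium and to assemble the matrix that they secrete.

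Poly(A)-selected RNA of native cardiac fibroblasts (CFs) was sequenced from the hearts of 3 wildtype (WT) and 3 CharmeKO mice, all 5 weeks old. Both groups shared the same background, C57BL/6J, and differed in a polyadenylation signal inserted into the locus of the long noncoding RNA *Charme*, a constitutive allele that is not limited to fibroblasts. Cells were taken by dissociation of the heart, lysis of red blood cells and depletion of hematopoietic lineages, whereas the labels also list a serum-containing medium and fibronectin-coated plates. The comparison asks how the loss of *Charme*, a transcript of muscle cells, is seen in the adhesion genes of the fibroblasts beside them.

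The total count was 9595701 to 42101393 per library, and the lowest count of any member in any library was 41. The targeted transcript *Charme* had 4 to 26 counts in the WT libraries and 0 to 7 counts in the CharmeKO libraries, where 0 allows up to 3 counts and intervals of this kind cover counting error only. The fibroblast markers *Pdgfra* (428 ± 32.1 CPM in WT and 414 ± 51.4 in CharmeKO; SD, n = 3), *Tcf21* and *Dcn* were present in each library, CPM being the count scaled to a common, TMM-adjusted library size. The endothelial marker *Pecam1* was also abundant, at 1082 ± 133 CPM in WT and 1200.0 ± 160 in CharmeKO (SD, n = 3), so that the values below are those of a fibroblast preparation with vessel cells in it. In such bulk samples, fewer cells of a type and less RNA in each cell cannot be told apart. The labels do not give the sex of the mice. *Xist* and Y-linked transcripts divided the libraries into WT replicate 1 with CharmeKO replicates 1 and 2 on the *Xist* side, and WT replicates 2 and 3 with CharmeKO replicate 3 on the Y-linked side. Each label names a separate sample, and the p-values measure the spread between these samples.

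The order of the genes was set first, on a scale on which genes can be compared, the CPM per kilobase of exon. *Itgb1*, the β chain shared by the receptors for collagen, laminin and fibronectin, was the highest of the 35 at 243 ± 34.7 in WT and 255 ± 2.01 in CharmeKO (SD, n = 3). It was followed by the tensin *Tns2* at 143 ± 27.3 in WT and 101.4 ± 22.2 in CharmeKO, and by the kinase-like scaffold *Ilk* at 86.2 ± 2.15 and 79.8 ± 7.84. *Itgb5* (82.6 ± 8.26 and 79.6 ± 7.18), *Zyx* (89.1 ± 8.22 and 63.2 ± 16.3) and *Tln1* (73.8 ± 2.24 and 62.6 ± 4.19) came next. *Ilk* and *Itgb5*, neighbours in this order, did not differ beyond the larger of their SDs in either group. Of the α chains, *Itga5* (59.2 ± 6.91 in WT and 38.1 ± 10.3 in CharmeKO) and *Itga6* (41.6 ± 2.02 and 44.4 ± 0.927) stood above the others, of which the next was *Itga9* (17.5 ± 3.70 and 13.8 ± 1.64). *Itga4*, best known from lymphocytes, and *Itga2*, best known from platelets and epithelia, were at the foot of the order with means of 0.604 and 0.542 over the 6 libraries.

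**Figure D1:**
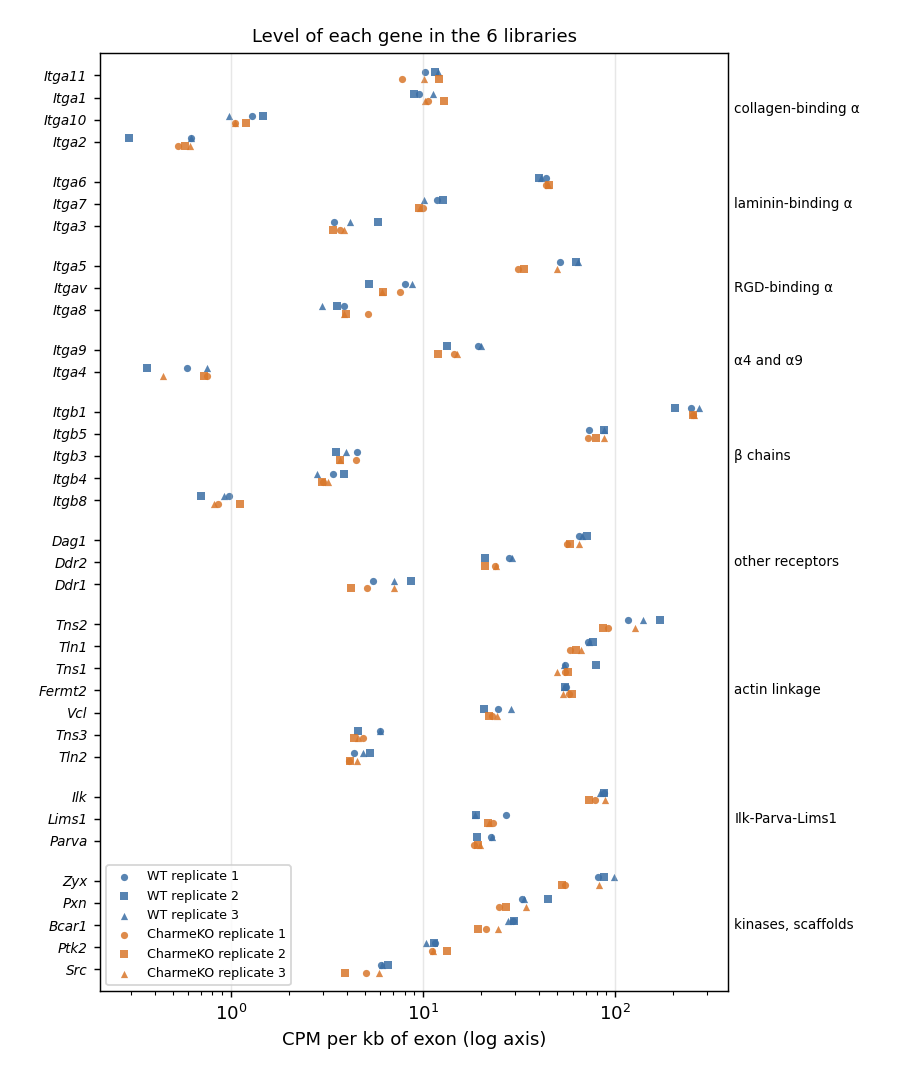
Level of each of the 35 genes in CPM per kilobase of exon on a log axis, for the 3 WT and the 3 CharmeKO libraries, with the shape of a point giving the replicate and the genes grouped by the role of the protein. *Itgb1* lies above all other genes, and *Itga2* and *Itga4* lie below 1 in every library.

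None of the 35 genes passed an adjusted p of 0.05 in edgeR's quasi-likelihood test (the adjusted values ran from 0.174 to 0.973), against a background of 0.83% of all tested genes (0.418% higher and 0.412% lower). At an unadjusted p under 0.05 there were 5 members, all with lower values in CharmeKO (*Itga5*, *Bcar1*, *Zyx*, *Tns2* and *Pxn*), where 12.8% of all tested genes were past that value, 6.87% lower and 5.9% higher. DESeq2, run on the same counts, called 1 member, *Itga5* (adjusted p = 0.0188), against 2.5% of all tested genes. The sign of the difference was less even: 25 of the 35 genes were lower in CharmeKO, at a median of -0.17 on the log2 scale and a range of -0.63 to 0.31, while 48.8% of all tested genes were lower and their median was 0.01. In 5 members the 3 CharmeKO libraries all lay below the 3 WT libraries (*Itga5*, *Bcar1*, *Itga7*, *Src* and *Tln1*), which held for 8.59% of all tested genes. In 0 members they all lay above, against 9.57% of all tested genes.

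**Figure D2:**
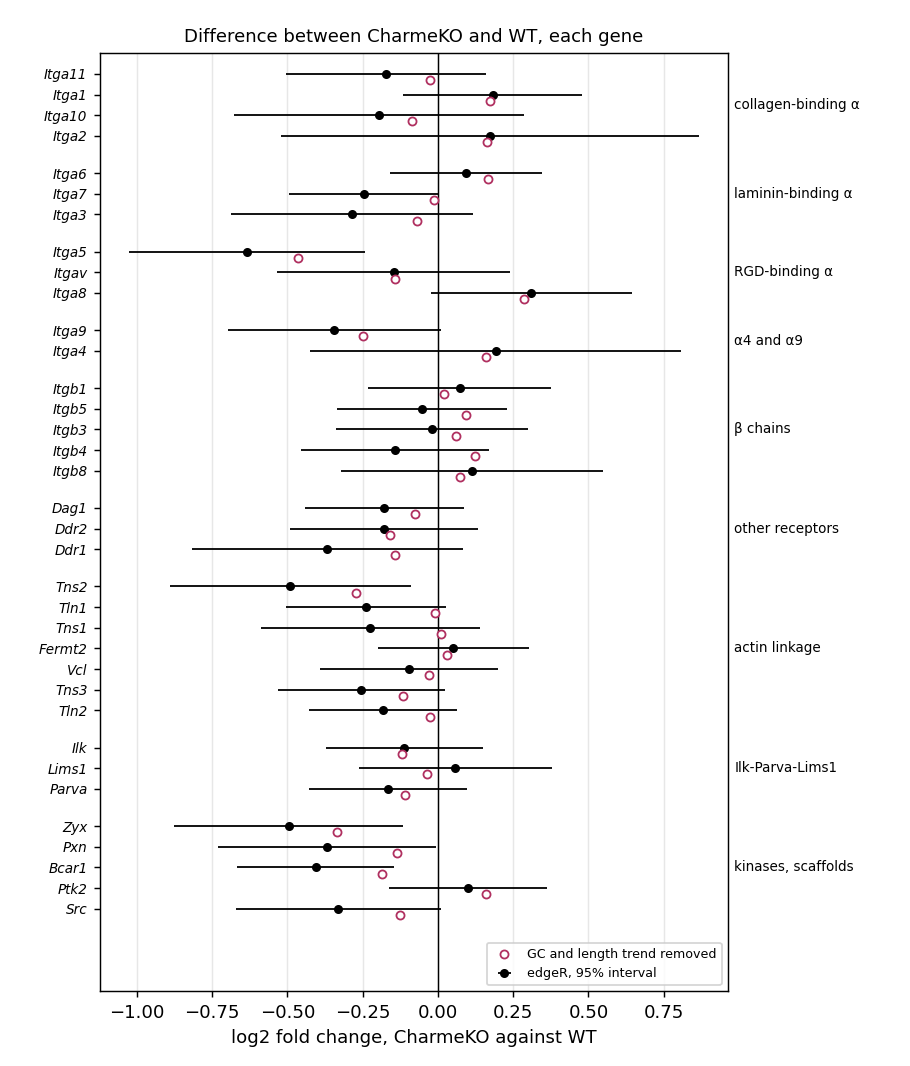
The log2 fold change of each of the 35 genes, CharmeKO against WT, with its 95% interval from edgeR (filled points) and after the trend of each library with GC content and gene length was removed (open points). The filled points lie below 0 for 25 genes, and the intervals of *Itga5*, *Tns2*, *Zyx*, *Pxn* and *Bcar1* do not reach 0.

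The receptors for fibronectin and other ligands with an RGD motif held the member with the lowest p. *Itga5* (ENSMUSG00000000555) encodes the α chain that binds fibronectin with *Itgb1* and pulls it into fibrils. It had 253, 306 and 316 CPM in WT replicates 1, 2 and 3, and 153, 165 and 246 CPM in CharmeKO replicates 1, 2 and 3. The groups did not overlap, although CharmeKO replicate 3 came close to WT replicate 1. The mean was 292 ± 34.1 CPM in WT and 188 ± 50.6 in CharmeKO (SD, n = 3), a log2 fold change of -0.63 (SE 0.18, 95% interval -1.03 to -0.24, edgeR adjusted p = 0.174). On the *Xist* side of the libraries 253 stood against 153 and 165 CPM, and on the Y-linked side 306 and 316 against 246 CPM. With 1 WT library on the first side and 1 CharmeKO library on the second, neither side has a spread in both groups. Leaving out each library in turn gave -0.88 to -0.50 on the log2 scale. Without CharmeKO replicate 3, the CharmeKO library nearest to WT, *Itga5* was called (-0.88, edgeR adjusted p = 0.0255, against 1.22% of all genes tested). Without any other single library it was not called (edgeR adjusted p = 0.148 to 0.565). CharmeKO replicate 3 was the only CharmeKO library on the Y-linked side. The fit without it therefore set CharmeKO libraries of the *Xist* side alone against WT libraries of both sides. The part of this split, and of the GC trend described below, in that call was not tested. *Itga5* was also called without a gene filter (edgeR adjusted p = 0.000874, against 2.84%).

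The other α chains with that ligand motif lay on both sides of 0. *Itgav*, the chain that pairs with *Itgb3* and *Itgb5* on vitronectin and on latent TGFβ, had 86.8, 55.9 and 93.9 CPM in WT and 81.3, 66.4 and 65.5 in CharmeKO, overlapping groups with a log2 fold change of -0.15 (SE 0.18, edgeR adjusted p = 0.791). *Itga8*, which binds nephronectin and fibronectin, had the highest log2 fold change of the 35 genes. Its values were 28.6, 26.2 and 21.9 CPM in WT and 38.0, 29.4 and 28.4 in CharmeKO, a log2 fold change of 0.31 (SE 0.15, edgeR adjusted p = 0.426), and the groups overlapped only by CharmeKO replicate 3 and WT replicate 1.

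The β chains lay close together in both groups. *Itgb1* (ENSMUSG00000025809) had 1012, 839 and 1119 CPM in WT and 1033, 1042 and 1049 in CharmeKO, so that all CharmeKO libraries fell inside the WT range. Its log2 fold change was 0.07 (SE 0.14, 95% interval -0.23 to 0.38, edgeR adjusted p = 0.873) and turned to -0.04 without WT replicate 2. *Itgb5* had 259.6, 312 and 309 CPM in WT and 258, 282 and 309 in CharmeKO (-0.05, SE 0.13, edgeR adjusted p = 0.901). *Itgb3*, the chain of the vitronectin receptor, had 26.8, 20.7 and 23.3 CPM in WT and 26.5, 21.7 and 21.8 in CharmeKO (-0.02, SE 0.15, edgeR adjusted p = 0.973). The signs of both of these small values turned when single libraries were left out. *Itgb4*, the chain of hemidesmosomes, and *Itgb8*, which activates TGFβ with *Itgav*, had log2 fold changes of -0.14 and 0.11 and overlapping groups.

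The collagen-binding α chains split by sign, 2 lower and 2 higher, and all 4 had overlapping groups. *Itga1*, the receptor with a preference for basement membrane collagen, had 177, 166 and 208 CPM in WT and 197, 238 and 190 in CharmeKO (0.18, SE 0.14, edgeR adjusted p = 0.628). *Itga11*, the receptor of fibroblasts for fibrillar collagen, had 52.8, 59.2 and 61.5 CPM in WT and 39.9, 61.8 and 52.1 in CharmeKO (-0.17, SE 0.15, edgeR adjusted p = 0.694). The highest value of the latter gene was therefore in a CharmeKO library, and so was its lowest. *Itga10* (-0.20) and *Itga2* (0.17) were low genes, with 5.06 to 7.57 and 2.09 to 4.44 CPM across the 6 libraries.

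Among the laminin receptors, *Itga7*, the α chain best known from muscle, had 95.8, 102.1 and 81.9 CPM in WT and 81.0, 77.4 and 78.0 in CharmeKO. The groups did not overlap, WT replicate 3 and CharmeKO replicate 1 being close, and the log2 fold change was -0.25 (SE 0.11, edgeR adjusted p = 0.397). *Itga6*, abundant in vessel cells, had 360.0 to 396 CPM in WT and 392 to 408 in CharmeKO (0.09), and *Itga3* had 19.5 to 33.3 and 19.4 to 22.2 CPM (-0.28); the groups of both overlapped. *Itga9*, which binds tenascin C and the extra domain of fibronectin, had 149, 101.96 and 153 CPM in WT and 111, 91.8 and 116 in CharmeKO (-0.34, SE 0.16, edgeR adjusted p = 0.410), with WT replicate 2 inside the CharmeKO range. *Itga4*, its relative, had 5.10 to 10.5 CPM in WT and 6.22 to 10.5 in CharmeKO (0.19).

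**Figure D3:**
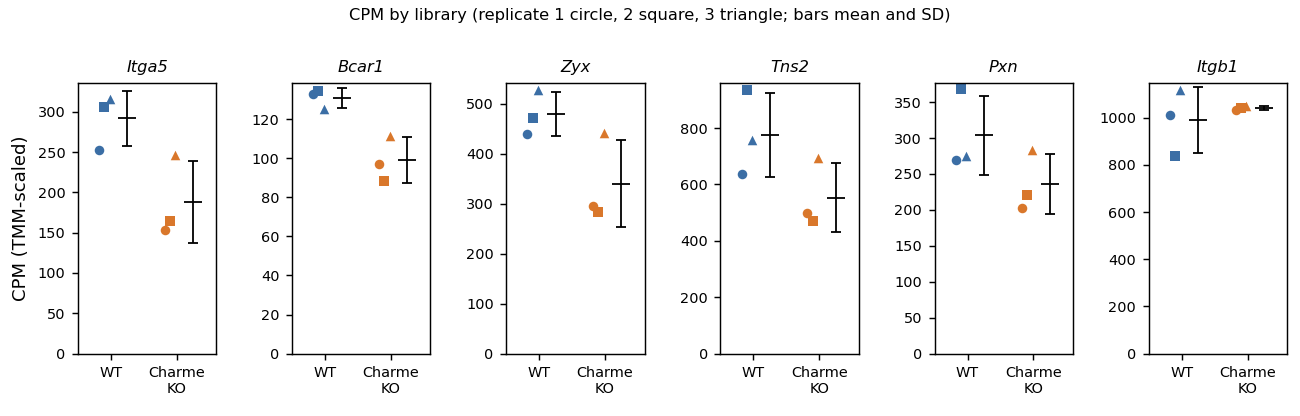
CPM of *Itga5*, *Bcar1*, *Zyx*, *Tns2*, *Pxn* and *Itgb1* in each of the 3 WT and 3 CharmeKO libraries, 1 panel a gene, with the shape of a point giving the replicate (1 circle, 2 square, 3 triangle) and bars the mean and SD of the group. In the first 5 genes the highest CharmeKO point is replicate 3, and in *Itgb1* the CharmeKO points lie inside the WT range.

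Each chain was next taken as a share of the summed length-scaled level of the 12 α chains in its own library, a measure that is free of library scaling. *Itga5* made up 35.1 ± 3.35% of the α chains in WT and 26.2 ± 5.12% in CharmeKO (SD, n = 3), a difference of -8.86 points. WT replicate 1 (31.3%) lay below CharmeKO replicate 3 (32.1%), and the difference did not pass an exact permutation test (two-sided, p = 0.2, adjusted over the 12 chains 0.48). *Itga6* made up 24.7 ± 1.79% in WT and 30.9 ± 1.94% in CharmeKO (SD, n = 3). Its groups did not overlap, and the same held for the higher shares of *Itga1* (5.85 ± 0.464% and 7.81 ± 1.25%), *Itga8* (2.07 ± 0.349% and 3.04 ± 0.680%) and *Itga2*, each at p = 0.1 in the exact permutation test, the smallest that 3 libraries against 3 allow, and 0.3 after adjustment. With the length of the longest transcript in place of all exons, *Itga6* and *Itga8* stayed at p = 0.1, while *Itga1* and *Itga2* were at an exact permutation p = 0.2 and the difference of *Itga2* was 0.0519 in place of 0.0944 points. The shares of one library add up to the whole, so that a lower share of *Itga5* by itself raises the others. In CPM the groups of *Itga6*, *Itga1*, *Itga8* and *Itga2* overlapped. The trend with GC content described below was not removed from the shares. In the 2 *Xist* libraries of CharmeKO *Itga6* was the most abundant α chain, whereas in WT and in CharmeKO replicate 3 it was *Itga5*. The β chains were dominated by *Itgb1*, with 72.6 ± 3.79% of their sum in WT and 74.5 ± 1.34% in CharmeKO, and *Itgb5*, with 24.9 ± 3.67% and 23.2 ± 1.495% (SD, n = 3).

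**Figure D4:**
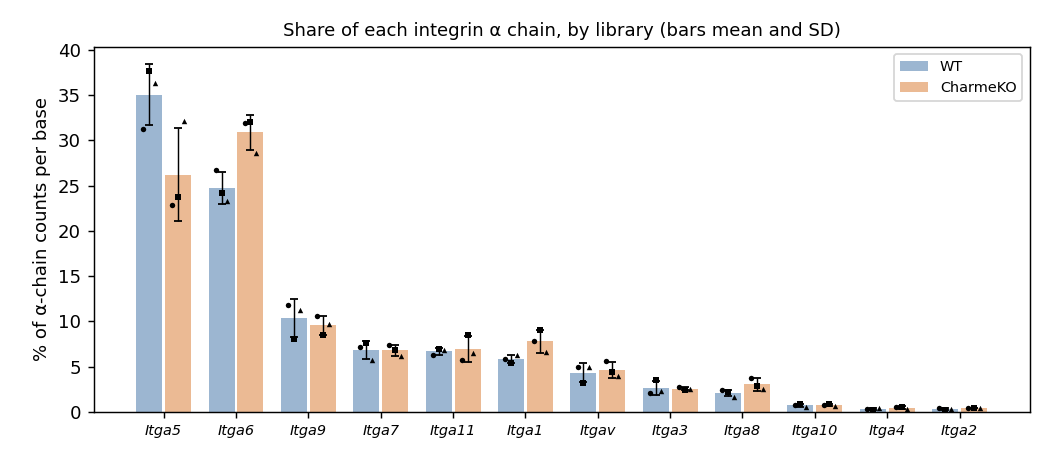
Share of each of the 12 integrin α chains in the summed length-scaled counts of α chains, in percent, with bars at the mean of the 3 WT or 3 CharmeKO libraries, error bars of 1 SD and points for the libraries (replicate 1 circle, 2 square, 3 triangle). The *Itga5* points span 31.3% to 37.6% in WT and 22.8% to 32.1% in CharmeKO.

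Ratios of 2 members within a library were compared for 10 pairs. *Itga5* relative to its partner *Itgb1* was at -1.76 ± 0.28 on the log2 scale in WT and -2.50 ± 0.36 in CharmeKO (SD, n = 3), 0.74 lower, with no overlap. *Itga11* relative to *Itga1* (-1.66 ± 0.15 and -2.04 ± 0.23) and *Itga7* relative to *Itga6* (-2.01 ± 0.18 and -2.35 ± 0.06) were also lower in each CharmeKO library than in any WT library. All 3 were at the exact permutation limit of p = 0.1 and at 0.333 after adjustment over the 10 pairs. The groups of the other 7 overlapped, among them *Itgav* to *Itgb1*, *Itgb3* to *Itgb5*, *Ddr1* to *Ddr2*, *Tln2* to *Tln1* and *Parva* to *Ilk*. In the 3 ratios without overlap the first gene had the higher GC content (57.3% over 44.9%, 55.5% over 42.8% and 57.8% over 48.9%). The same order held for *Ddr1* over *Ddr2* (59.7% and 45.1%) and *Tns1* over *Tns3* (56.2% and 52.8%), whose groups overlapped. The trend with GC described below was not removed from the ratios, and its part in them was not tested.

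The matrix receptors outside the integrin family were all 3 lower, and none of them clearly so. *Ddr2*, the collagen receptor kinase of fibroblasts, had 260.1, 194 and 268 CPM in WT and 220.0, 196 and 223 in CharmeKO (-0.18, SE 0.14, edgeR adjusted p = 0.655). *Ddr1*, its epithelial relative, was lower in level, with 26.1, 41.2 and 33.7 CPM in WT and 24.4, 20.1 and 33.6 in CharmeKO (-0.37, SE 0.21, edgeR adjusted p = 0.487). *Dag1*, the laminin receptor dystroglycan, had 414, 451 and 429 CPM in WT and 358, 371 and 414 in CharmeKO (-0.18, SE 0.12, edgeR adjusted p = 0.578). In *Dag1* the groups met only at WT replicate 1 and CharmeKO replicate 3, whereas in *Ddr2* WT replicate 2 was the lowest of all 6 libraries.

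Of the 15 intracellular genes, 12 were lower, at a median of -0.22 on the log2 scale. The 5 kinases and scaffolds held 3 of the 5 members with an unadjusted p under 0.05. *Zyx*, the LIM protein zyxin that moves along strained actin fibres, had 440.2, 473 and 528 CPM in WT and 295, 285 and 442 in CharmeKO (-0.50, SE 0.17, 95% interval -0.87 to -0.12, edgeR adjusted p = 0.269). CharmeKO replicate 3 stood apart from the other CharmeKO libraries and reached the lowest WT library. Without that library *Zyx* was called (-0.73, edgeR adjusted p = 0.0412), and without any other single library it was not. As for *Itga5*, the fit without that library kept CharmeKO libraries of the *Xist* side only. *Bcar1*, the stretch-sensitive Src substrate p130Cas, had 133, 135 and 125 CPM in WT and 96.9, 88.2 and 111 in CharmeKO (-0.41, SE 0.12, 95% interval -0.67 to -0.15, edgeR adjusted p = 0.186), with no overlap. *Pxn*, the scaffold paxillin, had 269.5, 368 and 274 CPM in WT and 203, 221 and 283 in CharmeKO (-0.37, SE 0.16, edgeR adjusted p = 0.386), with CharmeKO replicate 3 inside the WT range.

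The kinases differed in sign. *Src* had 26.3, 28.8 and 26.7 CPM in WT and 22.0, 17.2 and 25.8 in CharmeKO (-0.33, SE 0.16, edgeR adjusted p = 0.410), without overlap. *Ptk2*, which encodes focal adhesion kinase, had 136, 134 and 121 CPM in WT and 131, 157 and 133 in CharmeKO (0.10, SE 0.12, 95% interval -0.16 to 0.36, edgeR adjusted p = 0.786). A difference of *Ptk2* of the size fitted for *Itga5* would lie outside that interval.

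The genes that tie integrins to actin were lower in 6 of 7 cases. *Tns2*, a tensin, had 638, 934 and 759 CPM in WT and 497, 470.0 and 692 in CharmeKO (-0.49, SE 0.18, edgeR adjusted p = 0.293), and CharmeKO replicate 3 was again the library that reached into the WT range. *Tln1*, the talin that switches integrins on, had 703, 746 and 720 CPM in WT and 571, 616 and 653 in CharmeKO (-0.24, SE 0.12, edgeR adjusted p = 0.445), with no overlap. *Tns3* had 66.5, 50.9 and 66.8 CPM in WT and 54.2, 48.8 and 51.3 in CharmeKO (-0.25, SE 0.13, edgeR adjusted p = 0.438). *Vcl*, the vinculin that reinforces loaded talin, showed the smallest of these lower values, with 201, 169 and 234 CPM in WT and 187, 179 and 199 in CharmeKO (-0.10, SE 0.14, edgeR adjusted p = 0.824). The kindlin *Fermt2* (0.05), *Tns1* (-0.22) and *Tln2* (-0.18) had overlapping groups.

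The complex of *Ilk*, *Parva* and *Lims1*, which joins β chains to actin, had small log2 fold changes in both directions. *Ilk* had 241, 239 and 230 CPM in WT and 215, 200 and 242 in CharmeKO (-0.11, SE 0.12, 95% interval -0.37 to 0.15, edgeR adjusted p = 0.761). *Parva* (-0.17) and *Lims1* (0.06) also had overlapping groups.

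The direction of the 35 genes followed their GC content. All 21 members with more than 50% GC in their longest transcript were lower in CharmeKO (median -0.25), against 4 of the 14 members at or below 50% (median 0.08). Among all tested genes 59.1% of those above and 39.0% of those below that value were lower. Spearman's rho of the log2 fold change with GC was -0.78 over the 35 genes and -0.24 over all tested genes, a description across genes that share the same 6 libraries. Single libraries differed in the same respect. The deviation of a member from its mean over the 6 libraries was larger at higher GC in WT replicate 2 (rho 0.89 over the 35 genes, 0.34 over all tested genes), and smaller at higher GC in CharmeKO replicates 1 (-0.75 and -0.30) and 2 (-0.65 and -0.21). In WT replicates 1 and 3 and CharmeKO replicate 3 it lay between -0.21 and 0.27 for the members.

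**Figure D5:**
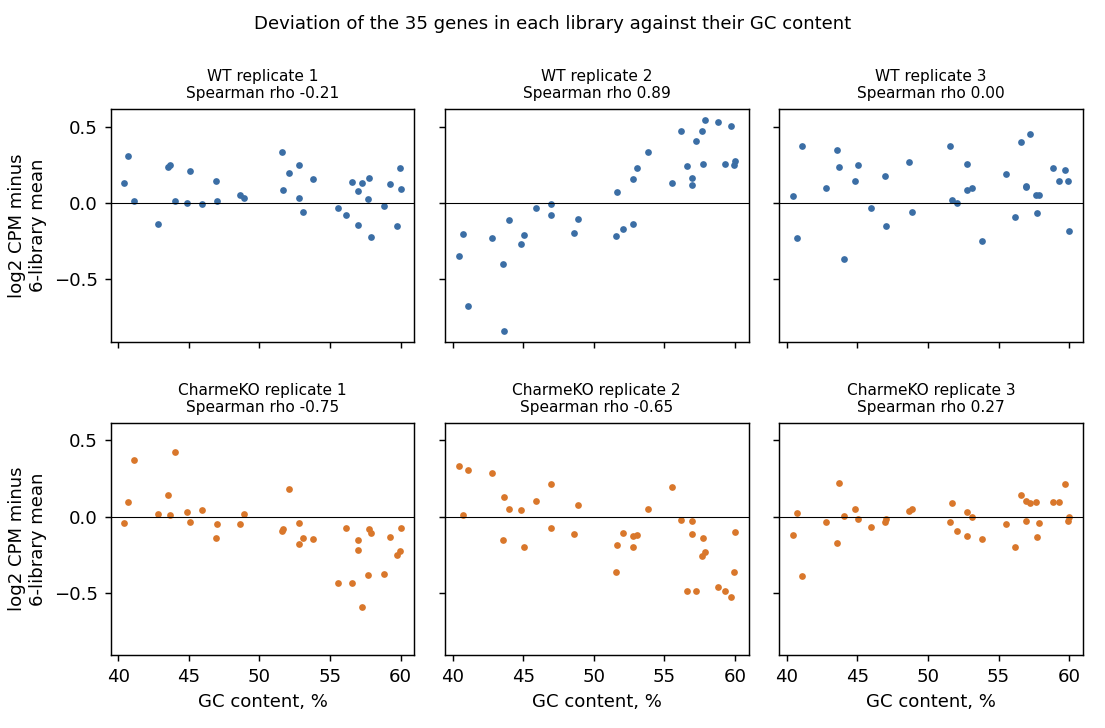
Deviation of each of the 35 genes from its mean over the 6 libraries, in log2 CPM, against the GC content of its longest transcript in percent, 1 panel for each library. The points climb in WT replicate 2 (Spearman's rho 0.89) and descend in CharmeKO replicates 1 and 2 (-0.75 and -0.65).

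With the trend of each library with GC content and gene length removed before the fit, 22 of the 35 genes were lower and their median log2 fold change was -0.03. A relation with GC remained among the members, at a Spearman's rho of -0.42. Of the 21 members above 50% GC 17 were still lower, against 5 of the 14 at or below it. *Itga5* kept the largest difference, at -0.46 (edgeR adjusted p = 0.281), and *Zyx* had -0.33 (0.413). The values of *Tns2* (-0.27), *Bcar1* (-0.18), *Pxn* (-0.14), *Src* (-0.13), *Ddr1* (-0.14), *Tln1* (-0.01), *Itga7* (-0.01), *Itga11* (-0.03), *Dag1* (-0.08), *Tns3* (-0.12), *Vcl* (-0.03) and *Itgb1* (0.02) shrank by more than 1.5 times, and so did those of *Itga3* (-0.07), *Itga10* (-0.09), *Itgb8* (0.07), *Tln2* (-0.02) and *Fermt2* (0.03). Those of *Itga6* (0.17) and *Ptk2* (0.16) grew by more than 1.5 times, whereas *Itga8* (0.29), *Itga1* (0.17), *Itgav* (-0.14) and *Ddr2* (-0.16) moved little. *Itgb3* (0.06), *Itgb4* (0.12), *Itgb5* (0.09), *Tns1* (0.01) and *Lims1* (-0.04) changed sign.

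The libraries also differed in which member they set apart. Among the 25 genes with lower values, CharmeKO replicate 3 was the highest of its group in 18, and WT replicate 2 was the highest of its group in 14. Without WT replicate 2, 30 of the 35 genes were lower, *Itga2*, *Itga4*, *Itgb1*, *Itgb8* and *Lims1* having turned below 0. With a term for the *Xist* and Y-linked split, 25 genes were again lower, *Itga5* was at -0.51 and *Zyx* at -0.39, and 0 members were called by edgeR, against 0.652% of all tested genes, with 4 at an unadjusted p under 0.05.

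The promoters of the genes were examined for sequence that they share, in windows of RefSeq on GRCm38.p6 from 250 bases before to 50 bases after the start of transcription. Windows were found for 27 of the 35 genes, 36 in all. The GC box, searched as GGGCGG or CCGCCC, which covers both strands, was in 23 of the 36 (63.9%) and in 35.7% of the 32851 windows of all genes. The median GC content of these windows was 66.2%, against 52.7% over all windows. The CArG box, the binding motif of serum response factor, was in 2 of 36 (5.56%, *Fermt2* and *Vcl*) against 1.63%. The letters GGAATG or CATTCC, a motif of TEAD factors, were in 3 of 36 (8.33%) against 14.7%, and TATAAA or TTTATA in 2 of 36 (5.56%) against 13.6%. Such a match is a description of the window and not a binding site. The windows of *Itga5* (chr15:103366742-103367041, minus strand) and *Zyx* (chr6:42349578-42349877, plus strand), the 2 members called in more than 1 alternative setting, are shown with that of *Itgb1* (chr8:128685404-128685703, plus strand), the member with the highest level, each 5′ to 3′ with GC boxes in capitals.
Itga5: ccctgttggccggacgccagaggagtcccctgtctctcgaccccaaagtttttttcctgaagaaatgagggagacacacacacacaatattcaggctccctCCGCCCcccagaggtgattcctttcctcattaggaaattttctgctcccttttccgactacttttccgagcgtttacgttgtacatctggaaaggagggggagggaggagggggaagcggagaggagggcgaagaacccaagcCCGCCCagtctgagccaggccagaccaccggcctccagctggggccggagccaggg
Zyx: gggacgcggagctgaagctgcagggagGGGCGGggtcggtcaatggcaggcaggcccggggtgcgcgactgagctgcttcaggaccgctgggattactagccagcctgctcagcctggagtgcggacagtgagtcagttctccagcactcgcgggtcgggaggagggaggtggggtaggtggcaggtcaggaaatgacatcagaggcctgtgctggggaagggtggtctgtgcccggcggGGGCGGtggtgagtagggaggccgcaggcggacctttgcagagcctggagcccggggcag
Itgb1: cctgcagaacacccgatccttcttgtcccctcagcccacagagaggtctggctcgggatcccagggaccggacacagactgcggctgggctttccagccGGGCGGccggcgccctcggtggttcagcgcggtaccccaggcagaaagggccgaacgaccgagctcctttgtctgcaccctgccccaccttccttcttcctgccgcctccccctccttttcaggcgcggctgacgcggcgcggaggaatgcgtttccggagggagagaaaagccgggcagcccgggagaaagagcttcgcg
All 3 windows hold a GC box, with 2 copies in *Itga5* and *Zyx* and 1 in *Itgb1*. A relation of these boxes to the log2 fold changes was not tested.

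The ligands of these receptors were read beside them, from a list of collagen, laminin, fibronectin and other matrix genes. Of 34 such genes 33 were tested, 29 were lower, and their median log2 fold change was -0.51, against -0.17 for the receptors and adhesion genes. None was called by edgeR, against 0.83% of all tested genes. An unadjusted p under 0.05 was found for 18, of which 16 were lower, against 12.8% of all tested genes. DESeq2 called 8, all lower, against 2.5% of all tested genes. The most abundant were *Hspg2*, the basement membrane proteoglycan perlecan (15055 ± 2224 CPM in WT and 9863 ± 2660 in CharmeKO, SD, n = 3), *Col4a1* (8217 ± 1191 and 5704 ± 1695) and *Col3a1* (7462 ± 1970 and 4891 ± 1706). *Fn1*, the ligand of the *Itga5* and *Itgb1* pair and named after its values were seen, had 1549, 1071 and 1609 CPM in WT and 986, 935 and 1040.5 in CharmeKO (-0.51, SE 0.16, edgeR adjusted p = 0.233), without overlap.

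Other components of the adhesion site were spread on both sides of 0. Of 61 further adhesome genes 59 were tested and 35 were lower, with a median of -0.05. Of these, 0 were called by edgeR (8 at an unadjusted p under 0.05, and 2 called by DESeq2). For this list and those below, the shares over all tested genes were 0.83% by edgeR, 12.8% unadjusted and 2.5% by DESeq2. The most abundant were *Cav1* (1462 ± 23.9 CPM in WT and 1581 ± 136 in CharmeKO), *Flna* (1278 ± 98.1 and 1135 ± 119) and *Actn4* (886 ± 41.3 and 893 ± 62.3; SD, n = 3). The 19 genes that bind dystroglycan or form its complex were lower in 7 cases and higher in 12, with a median of 0.07 and 0 called by edgeR (4 at an unadjusted p under 0.05, and 1 called by DESeq2). Their most abundant members were *Utrn* (259 ± 7.55 and 299 ± 48.8 CPM), *Sntb2* (228 ± 5.69 and 220 ± 14.5) and *Sgce* (81.8 ± 0.383 and 99.7 ± 1.35). Of 10 integrin chains of leukocytes and epithelia, 5 passed the filter, led by *Itga2b*, *Itgal* and *Itgb7*, and 0 were called by edgeR or DESeq2 (0 at an unadjusted p under 0.05).

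Markers of other cells were summed in each library, since several of the 35 genes are shared between cell types. The fibroblast list had 43830 to 46360 CPM in WT and 36120 to 44650 in CharmeKO, with 10 of its 15 genes lower. Among the lower were *Col1a1* (log2 fold change -0.77), *Col1a2* (-0.54) and *Col3a1* (-0.61), which are also in the list of ligands above. The 5 higher genes were *Gsn* (0.03), with the highest CPM of the list, *Dcn* (0.29), *Mgp* (0.41), *Lum* (0.32) and *Tcf21* (0.15). The cardiomyocyte list had 366 to 446 CPM in WT and 502 to 745 in CharmeKO, with 14 of 14 genes higher and *Myh6* and *Tnni3* called. The epicardial list had 58.2 to 75.8 and 34.4 to 41.9 CPM, with 8 of 8 genes lower and *Wt1* called. This sum rests mainly on *Wt1*, with means of 50.8 CPM in WT and 32.3 in CharmeKO. The next highest, *Upk3b*, had means of 5.32 and 1.61 CPM, and others such as *Krt8* (0.271 and 0.206) were near the floor. The endothelial list (13440 to 18620 and 14260 to 18920 CPM), the mural list (2981 to 3335 and 2895 to 3397) and the leukocyte list (98 to 194 and 140 to 178) overlapped between the groups. Single vessel genes went both ways. Without overlap were 1 lower and 4 higher endothelial genes and 3 lower and 2 higher mural genes, against 8.59% lower and 9.57% higher of all tested genes. DESeq2 called *Vwf* and *Cspg4* lower, and edgeR called no gene of either list. The list of dissociation response genes, those that cells switch on while a tissue is taken apart, had 35860 to 52820 CPM in WT and 40620 to 46170 in CharmeKO. Of its 15 genes 8 were lower and 7 higher, at a median log2 fold change of -0.0036. The list held *Hspa1a* (747 ± 220.4 CPM in WT and 1839 ± 202 in CharmeKO) and *Hspa1b* (570.3 ± 239 and 1714 ± 164; SD, n = 3), heat shock genes so alike that reads may be split between them, both called higher (edgeR adjusted p = 0.0116 and 0.0176) and both without overlap. No other gene of this list was called. The erythroid list had 26800 to 39250 CPM in WT and 24420 to 31760 in CharmeKO, with *Slc4a1*, the anion exchanger of red cells, called lower (25.1 ± 8.29 and 7.05 ± 2.10; edgeR adjusted p = 0.00555). The Schwann cell list had 19.4 to 25.3 CPM in WT and 17.4 to 19.7 in CharmeKO. None of the marker lists held a gene at 0 in all 6 libraries. The part of these cells and of the heat shock genes in the values of the 35 genes was not tested.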

How the data were processed

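The authors aligned the reads with STAR to a mouse genome (the submitters' processing notes list GRCm39, beside a human build), counted them on the genes of an Ensembl annotation to which *Charme* was added, and deposited raw counts, with no normalization, for 49548 genes in 6 libraries of native CFs, 3 WT and 3 CharmeKO. Libraries were grouped by their labels.

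The 15789 genes that reached 10 counts in 2 or more libraries were normalized by TMM and compared by the quasi-likelihood test of edgeR 4.0.16 in R 4.3.3, with Benjamini-Hochberg adjustment over all tested genes at a threshold of 0.05. SE values were derived from the F statistics. The common dispersion of 0.041 corresponds to a variation of 20.2% between replicates, and a count of 0 allows 0.0705 to 0.323 CPM. Shares and log2 ratios were compared with two-sided exact permutation tests (scipy 1.17.1). Gene lengths and GC content came from GENCODE release 21 on GRCm38, another build than the counts, so no gene coordinates are given. Length was that of all exons of a gene, and GC content that of its longest transcript. These properties covered 99.8% of the tested genes. No member had a near-identical copy by blastn 2.17.0 (97% identity over 50% of the longest transcript), and *Itga1* and *Itga10* each overlap 1 other gene model on the same strand, so that their counts are less certain. No pair of libraries within a group was a duplicate, and pairs across the groups were not checked.

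Full statistics were given for members past the threshold, the 12 with the lowest p, and *Itgb1*, *Itgav*, *Itga1*, *Itga5*, *Itga11*, *Itgb3*, *Itgb5*, *Ddr2*, *Dag1*, *Tln1*, *Vcl*, *Ptk2* and *Ilk*, 23 genes in all. From the other lists, genes past the threshold were named, and from those of the pathway also the 3 with the highest CPM. Some further genes of the marker lists were named after their values were seen. The members and all lists were chosen with earlier results of these data known. The alternatives were DESeq2 1.42.0, its size factors in edgeR, upper-quartile normalization, 3 other gene filters, the replicate number as a block, the removal of each library's GC and length trend, a term for the *Xist* and Y-linked split, each library left out, another transcript length, a pseudocount of 0.5 counts in the ratios and raw library totals. The statistical steps were tested on simulated data. Figures were drawn with matplotlib 3.10.9.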

Additional observations from a re-analysis of the deposited data

How the results depend on the processing

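The count of members called was 0 with edgeR's other normalizations and with 2 of the other filters, 1 (*Itga5*, lower) with DESeq2, 3 (*Itga5*, *Zyx* and *Tns2*, lower) without a gene filter, and 0 to 2 when single libraries were left out, the 2 without CharmeKO replicate 3. No setting called a member as higher. Over all genes 131 were called (66 higher and 65 lower), against 394 with DESeq2 (154 higher and 240 lower), 699 without a gene filter (253 and 446), 98 after the trend with GC and length was taken out (58 and 40), and 61 to 349 when single libraries were left out, from without CharmeKO replicate 1 (61), replicate 2 or WT replicate 3 (67 each) and WT replicate 1 (71) to without CharmeKO replicate 3 (189) and WT replicate 2 (349). The cause was not tested.

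No label states a pairing of the samples by replicate number, although the indices in their descriptions alternate between WT and CharmeKO in that order. The correlation of deviations between libraries of one number was 0.22, 0.05 and 0.16, and each library correlated best with that of its own number. With the replicate number as a block edgeR called 302 genes (115 higher and 187 lower) and 1 member (*Itga5*, adjusted p = 0.0288), and, once the trend with GC and length was also taken out, 229 genes and 0 members.

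The median log2 fold change of the members was -0.0304 after that trend was taken out (-0.0266 with the block), and -0.19 to -0.12 when single libraries were left out. *Itgb3* turned to 0.061 (0.0691 with the block) and *Itgb5* to 0.0925 (0.0935 with the block) in those fits, as did *Itgb4* to 0.1245 (0.1386), *Tns1* to 0.0087 (0.0214) and *Lims1* to -0.0358 (-0.0251). With the term for *Xist*, *Itgb5* turned to 0.0238 and *Lims1* to -0.011. Leaving out 1 library spanned -0.035 to 0.17 for *Itgb1*, -0.12 to 0.0904 for *Itgb3*, -0.13 to 0.0121 for *Itgb5*, -0.21 to 0.0225 for *Vcl*, -0.12 to 0.3824 for *Itga2*, -0.052 to 0.4161 for *Itga4*, -0.035 to 0.2266 for *Itgb8* and -0.0331 to 0.2601 for *Lims1*.

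Of the ratios, *Tns1* to *Tns3* spanned -0.12 to 0.36, *Itgb3* to *Itgb5* -0.12 to 0.22, *Ddr1* to *Ddr2* -0.45 to 0.0921 and *Parva* to *Ilk* -0.14 to 0.0230. Of the shares, in points, *Itga3* spanned -0.391 to 0.334, *Itga7* -0.647 to 0.313, *Itgav* -0.313 to 0.632, *Itga10* -0.0708 to 0.0956 and *Itga11* -0.557 to 0.855, and the length of the longest transcript gave -0.00898 for *Itga10* and -0.0620 for *Itga11*. With raw library totals the log2 ratio of the mural list was 0.058 and that of the leukocyte list 0.063, against -0.02 and -0.01. The log2 fold changes of the other members kept their direction in these settings, and *Itga5*, *Zyx* and *Tns2* were the members that any of them called. WT replicate 3, with 9595701 counts, limits the precision of the low members.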

Other observations

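In the wider lists of adhesion genes, 3 genes that DESeq2 called, named here after their values were seen, came closest to the threshold of edgeR. *Flnc*, which encodes the filamin of muscle, had 171, 159 and 186 CPM in WT and 112, 99.9 and 131 in CharmeKO (log2 fold change -0.59, SE 0.13, edgeR adjusted p = 0.0763). *Kank4*, which encodes a talin-binding adaptor, had 5.85, 2.66 and 4.20 CPM in WT and 11.2, 13.0 and 7.5002 in CharmeKO (1.30, SE 0.30, edgeR adjusted p = 0.0936). *Sgcd*, which encodes a sarcoglycan of the dystroglycan complex, had 4.37, 3.61 and 4.09 CPM in WT and 7.79, 8.02 and 7.14 in CharmeKO (0.92, SE 0.21, edgeR adjusted p = 0.0830). In none of these did the groups overlap. The cardiomyocyte markers *Myh6* (59.1 ± 3.57 CPM in WT and 106.3 ± 24.5 in CharmeKO) and *Tnni3* (27.5 ± 3.90 and 53.6 ± 10.995; SD, n = 3) were higher in the same libraries as *Kank4* and *Sgcd*, and their part in these values was not tested.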
